A study of Mus musculus with 4 samples.

Results

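The interleukins and their receptors were taken as every gene whose symbol in the deposited tables begins with Il followed by a digit, 79 of 28545 genes. By their known roles 33 encode ligands, 36 receptors and 6 natural antagonists or decoy receptors. The other 4 are an enzyme, an antisense transcript and 2 neuronal receptor-like proteins. The genes were read in polyadenylated RNA of mouse endometrium, the lining of the uterus, in proestrus, the stage of the cycle before ovulation. Of the 4 libraries, 2 are labelled SMAD7 Cre+/- and are marked CKO in the treatment label. The other 2 are labelled SMAD7fl/fl and carry the mark blank. Both groups descend from eggs in which loxP sites were placed in Smad7 with Cas9, so the floxed allele is shared, and the design text of the series calls the second group WT. The sources used here do not give the Cre driver, the deleted exons, the strain, the age or whether tissue was pooled. The comparison asks how these transcripts differ when Smad7, an intracellular brake on TGF-beta receptors, is deleted. Whether each library is a different animal is not stated, and p-values cover only library-to-library spread, part of which may be technical.

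Interleukins are small secreted proteins through which leukocytes, epithelium and stroma signal to each other. Many bind a receptor made of a private chain and a chain shared with related interleukins, such as the common gamma chain of the IL-2 family, gp130 of the IL-6 family or IL-17RA of the IL-17 family. The IL-1 family stands apart in having its own antagonists and decoys that limit the signal. In the uterus interleukin signals are known to act in the cyclic traffic of leukocytes, in the differentiation of natural killer cells and in the response of stroma to an embryo.

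The 4 libraries held 17444368 to 22950532 counts. Smad7 was read first as a check of the labels and went against them. It stood at 49.9 and 33.9 FPKM (counts scaled to gene length and library size) in the libraries labelled SMAD7 Cre+/-, against 7.79 and 7.81 FPKM in those labelled SMAD7fl/fl, a log2 fold change of 2.42 ± 0.28 (SE, edgeR adjusted p = 0.0981). Counts are per gene, so loss of single exons was not analysed here. Directions below therefore compare Cre-labelled with fl/fl-labelled libraries and are not tied to a loss of Smad7. The Cre-labelled pair was alike (Spearman correlation 0.985 over genes), while the fl/fl-labelled pair (0.908) was no more alike than libraries of different groups (0.912 to 0.920). Epithelial, stromal, smooth muscle and endothelial markers were present in all 4 libraries. Smooth muscle markers were higher in the Cre-labelled libraries, with all 5 of 5 not overlapping between groups, where 23.8% of all genes tested were so. Their summed level was 2759 and 2479 FPKM against 1749 and 1503 FPKM, led by Myh11, Actg2, Cnn1 and Des (log2 fold changes 1.35, 0.72, 0.70 and 0.67). Of 6 markers of ovary and oviduct, 5 were higher without overlap, as were 3 of the 4 tested (23.8% of all genes tested). The 6 summed to 94.3 and 292.5 FPKM in the Cre-labelled against 20.6 and 43.4 FPKM in the fl/fl-labelled libraries. Those tested were Star, Foxj1, Ovgp1 and Foxl2 (log2 fold changes 1.64, 4.30, 3.60 and 0.020). Markers of the other tissue lists had no common direction, with 1 higher and 2 lower without overlap in each of epithelium, stroma and endothelium. The stroma sum was nonetheless higher, at 1539 and 1452 FPKM in the Cre-labelled against 1133 and 1124 FPKM in the fl/fl-labelled libraries. The sums overlapped for epithelium (888 and 740 against 686 and 1094 FPKM) and endothelium (61.2 and 65.8 against 84.1 and 59.0 FPKM). These lists held 7, 7 and 4 markers, and the shares over all genes tested were 23.8% higher and 24.1% lower. The part of the smooth muscle, stroma, ovary and oviduct markers in the results below was not tested.

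Most interleukins were scarce and most receptors were not. Of the 79 genes, 40 had a mean level of at least 1 FPKM and were tested, among them 13 of 33 ligands, 25 of 36 receptors and 2 of 6 antagonists or decoys. Of the 39 not tested, 14 had fewer than 10 counts over all libraries and 3 of those had none. Of the 40, 5 passed through 1 group alone, Il1b, Il12b, Il17c, Il1f9 and Il22ra1, and such genes had to differ. Summed over all 33 ligands, the level was 55.9 and 55.8 FPKM in the Cre-labelled libraries, against 84.3 and 124.5 FPKM in the fl/fl-labelled ones. Both Cre-labelled sums lay below both fl/fl-labelled sums. Much of this distance came from Il1f6, at 3.65 and 3.31 FPKM against 21.9 and 44.0 FPKM, and Il1b, at 0.397 and 0.271 FPKM against 6.35 and 12.0 FPKM. In fl/fl-labelled replicate 1 Il12b added 8.53 FPKM, so the sums do not describe the ligands in general. Summed over the 36 receptors it was 254 and 251 FPKM against 256 and 249 FPKM, and the groups overlapped.

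No interleukin or receptor gene passed the edgeR quasi-likelihood test at an adjusted p under 0.05, and none of the 13513 genes tested did (0.0%). At an unadjusted p under 0.05 edgeR gave 9 members lower and 2 higher in the Cre-labelled libraries, where 6.59% of all genes were lower and 7.3% higher. The 9 were the ligands Il1b, Il1f6 and Il12b and the receptors Il2rb, Il2rg, Il10ra, Il21r, Il15ra and Il17rb, and the 2 were Il17ra and Il33. The groups did not overlap in 20 members that were lower and 6 that were higher, where 24.1% and 23.8% of all genes did so. The median log2 fold change was -0.50 over the 13 tested ligands and -0.30 over the 25 tested receptors, against -0.033 over all genes. The ligand median was 0.079 without fl/fl-labelled replicate 2, so its sign rested on that library. Without the 5 members that passed through 1 group, the ligand median was -0.13 over 9 genes and the receptor median -0.29 over 24. Of the 35 members then left, 7 were lower and 2 higher at an unadjusted p under 0.05, and 17 were lower and 6 higher without overlap. DESeq2, run as an alternative on the same counts, called 6 members lower (3.0% of all genes) and 2 higher (3.24%). The 6 were Il1b, Il1f6, Il12b, Il2rb, Il2rg and Il10ra, and the 2 were Il17ra and Il33. Of the 6, Il1b and Il12b had passed through 1 group alone and had to differ. The number of members at an unadjusted p under 0.05 rose without either fl/fl-labelled replicate and fell without either Cre-labelled one. The number over all genes did the same. Leaving out an fl/fl-labelled library also gave edgeR calls at an adjusted p under 0.05. There were 11 lower and 2 higher members without replicate 1 (13.9% and 17.5% of all genes), and 10 lower and 4 higher without replicate 2 (11.4% and 10.4%), the lone library then being assumed to vary like the Cre-labelled pair.

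**Figure D1:**
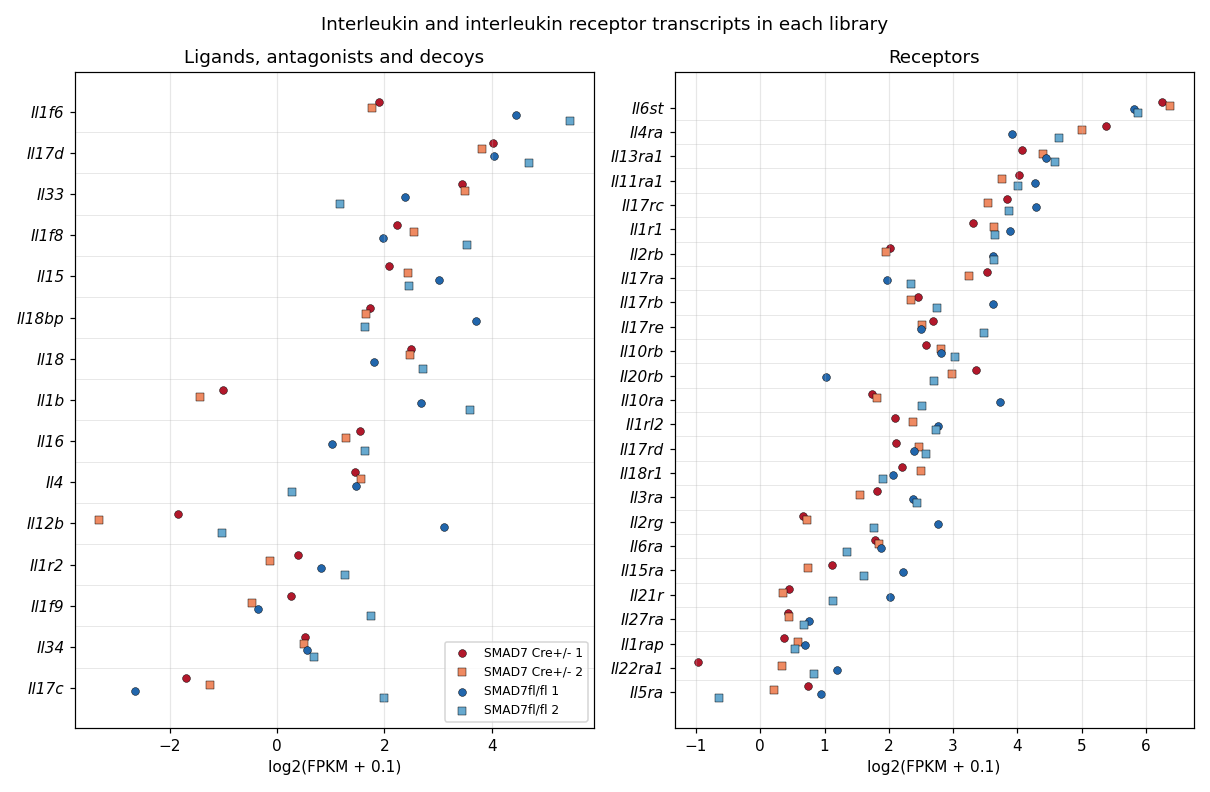
Level of each tested member in each library on a log2(FPKM + 0.1) axis, ligands with antagonists and decoys on the left and receptors on the right, 1 point per library. For most genes the Cre-labelled points lie close together, while the fl/fl-labelled points of genes such as Il12b, Il17c and Il18bp lie far apart.

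**Figure D2:**
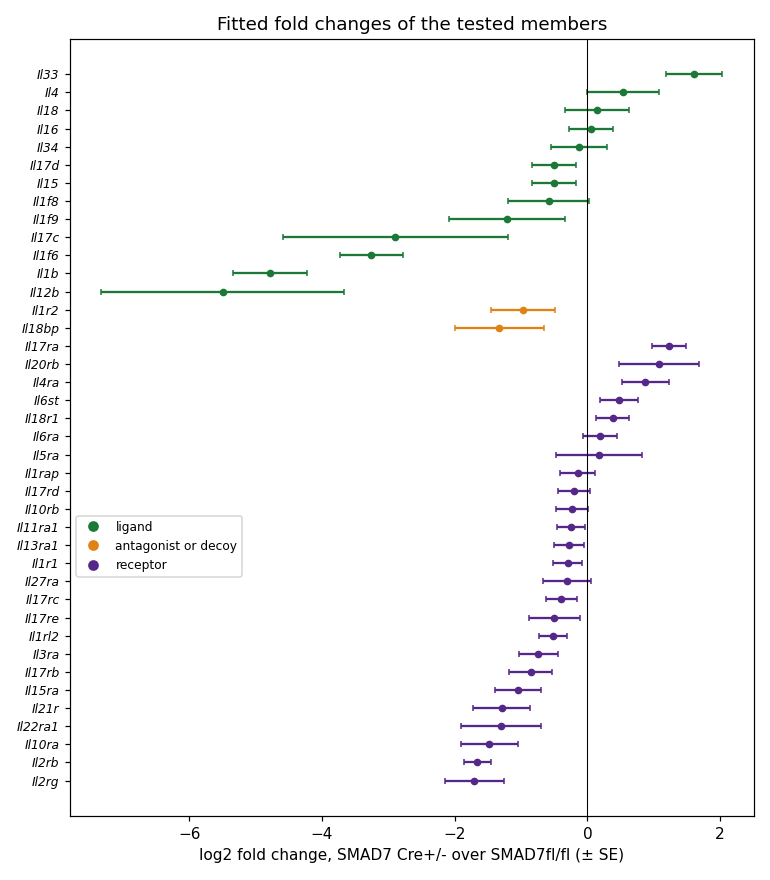
Log2 fold change of the 40 tested members, Cre-labelled over fl/fl-labelled libraries, with the standard error of the edgeR fit as bars. Il33 and Il17ra lie furthest to the right, and Il12b, Il1b and Il1f6 furthest to the left, with a wide bar for Il12b.

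The IL-1 family held the ligands with the widest separation between the groups. Il1b, the inflammatory cytokine that myeloid cells release after caspase cleavage, stood at 0.397 and 0.271 FPKM in the Cre-labelled libraries, against 6.35 and 12.0 FPKM in the fl/fl-labelled ones. Both Cre-labelled values were far under both fl/fl-labelled values. They rested on 24 counts in the Cre-labelled libraries together against 696 in the fl/fl-labelled, a level 26.2-fold higher in the fl/fl-labelled group with an exact 95% interval of 17.5 to 41.2 that covers counting error only. The fitted log2 fold change was -4.78 ± 0.56 (SE, edgeR adjusted p = 0.0981), and -4.19 to -5.20 with 1 library left out. The gene occupies 129364570 to 129371139 on chromosome 2 (GRCm38, minus strand), where the antisense transcript Il1bos covers 1.31% of the exon sequence. In bulk tissue fewer cells of a type and less RNA per cell cannot be told apart, here or for any leukocyte gene below.

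Its natural antagonist was low in the same libraries. Il1rn encodes the IL-1 receptor antagonist, which occupies the receptor without signalling. It stood at 0.137 and 0.186 FPKM in the Cre-labelled libraries, against 2.09 and 1.21 FPKM in the fl/fl-labelled ones, from 33 against 388 counts. The pooled level was 10.6-fold higher in the fl/fl-labelled group (7.44 to 15.7, counting error only), but the mean over all libraries was under 1 FPKM, so Il1rn was not among the genes tested. The ratio of Il1rn to Il1b within a library was 0.345 and 0.689 in the Cre-labelled and 0.330 and 0.101 in the fl/fl-labelled libraries. Both replicates numbered 1 were thus almost level, and the Cre-labelled ratios rested on 9 to 18 counts a gene. Il1a, the membrane-held IL-1 form of epithelium and other cells, had only 12, 18, 19 and 50 counts, the last in fl/fl-labelled replicate 2, and its groups overlapped.

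The promoter windows of these genes are shown because Il1b and Il1rn were low together and Il33 was high where they were low. They run from 250 bases before to 50 after the RefSeq start site on GRCm38.p6, 5′ to 3′ on the gene's strand, and capitals mark the motifs searched.
Il1b, chr2:129371090-129371389, minus strand: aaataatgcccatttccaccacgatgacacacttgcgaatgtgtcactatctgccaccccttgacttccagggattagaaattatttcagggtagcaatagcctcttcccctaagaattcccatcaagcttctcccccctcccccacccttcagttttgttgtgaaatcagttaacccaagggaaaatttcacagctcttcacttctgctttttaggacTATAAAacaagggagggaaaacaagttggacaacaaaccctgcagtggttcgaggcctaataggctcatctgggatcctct
Il1rn, chr2:24336610-24336909, plus strand: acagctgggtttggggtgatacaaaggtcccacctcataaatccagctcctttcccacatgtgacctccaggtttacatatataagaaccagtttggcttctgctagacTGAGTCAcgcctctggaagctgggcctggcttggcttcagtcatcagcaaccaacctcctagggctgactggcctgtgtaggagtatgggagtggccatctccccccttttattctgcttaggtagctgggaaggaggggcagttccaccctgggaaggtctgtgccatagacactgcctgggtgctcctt
Il33, chr19:29924863-29925162, plus strand: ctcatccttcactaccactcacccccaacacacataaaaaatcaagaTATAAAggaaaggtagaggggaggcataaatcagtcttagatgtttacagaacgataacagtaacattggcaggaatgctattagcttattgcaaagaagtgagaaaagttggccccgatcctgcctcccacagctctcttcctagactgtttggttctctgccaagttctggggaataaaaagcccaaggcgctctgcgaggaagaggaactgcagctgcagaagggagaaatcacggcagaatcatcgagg
The letters TATAAA, those of the core promoter TATA box, begin 31 bases before the Il1b start site. In the Il33 window they begin 203 bases before the start site, outside the core promoter. TGAGTCA, which fits the AP-1 motif TGANTCA, begins 141 bases before the start site shown for Il1rn, the first of 3 windows listed for that gene. The windows of 60 members were found, and 20.0% of them held TGANTCA on either strand, against 7.81% of all 32851 windows. TTGCNNAA, bound by C/EBP factors, was in 21.7% against 10.8%, TTCNNNGAA, bound by STAT factors, in 11.7% against 8.30%, the NF-kB motif in 6 of 60 against 8.46% and TATAAA in 18.3% against 13.6%. TGACGTCA, the cyclic AMP element, was in 0.0% against 1.79%. These are matches of letters and not sites shown to be bound.

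The 3 IL-36 agonists, which epithelium makes and which share a receptor, did not behave alike. Il1f6, encoding IL-36 alpha, stood at 3.65 and 3.31 FPKM in the Cre-labelled libraries, against 21.9 and 44.0 FPKM in the fl/fl-labelled ones. It was the most abundant ligand gene of the fl/fl-labelled libraries, and the groups were far apart, with a log2 fold change of -3.26 ± 0.47 (SE, edgeR adjusted p = 0.103) and a range of -3.71 to -2.61 with 1 library left out. The neighbouring Il1f8, encoding IL-36 beta, had 4.60 and 5.79 FPKM in the Cre-labelled libraries, against 3.83 and 11.5 FPKM in the fl/fl-labelled ones, and Il1f9, encoding IL-36 gamma, 1.10 and 0.626 FPKM against 0.687 and 3.27 FPKM. For both genes fl/fl-labelled replicate 2 was the highest library and replicate 1 lay below the Cre-labelled pair for Il1f8 and within it for Il1f9, and the log2 fold changes were -0.58 and -1.21. All 3 lie within chromosome 2 from 24153161 to 24225702 on GRCm38, next to Il1f5, the IL-36 receptor antagonist, which had 5 and 2 counts against 4 and 28.

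Among the tested ligands, Il33 was the one that was higher without overlap. It encodes the alarmin IL-33, kept in the nucleus of stromal, endothelial and epithelial cells and released on damage. It stood at 10.8 and 11.2 FPKM in the Cre-labelled libraries, against 5.10 and 2.17 FPKM in the fl/fl-labelled ones, and the groups did not overlap. The log2 fold change was 1.61 ± 0.42 (SE, edgeR adjusted p = 0.225), 1.15 without fl/fl-labelled replicate 2 and 2.29 without replicate 1.

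Il18 and its soluble inhibitor Il18bp differed between the fl/fl-labelled libraries more than between the groups. Il18, a cytokine that raises interferon gamma in natural killer and T cells, stood at 5.58 and 5.45 FPKM in the Cre-labelled libraries, against 3.38 and 6.50 FPKM in the fl/fl-labelled ones (log2 fold change 0.14). Il18bp stood at 3.23 and 3.05 FPKM, against 13.0 and 2.997 FPKM. Only fl/fl-labelled replicate 1 was high for Il18bp, and the log2 fold change of -1.33 was 0.018 without it. The ratio of Il18 to Il18bp was accordingly 1.72 and 1.79 in the Cre-labelled libraries, and 0.259 and 2.17 in the fl/fl-labelled.

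**Figure D3:**
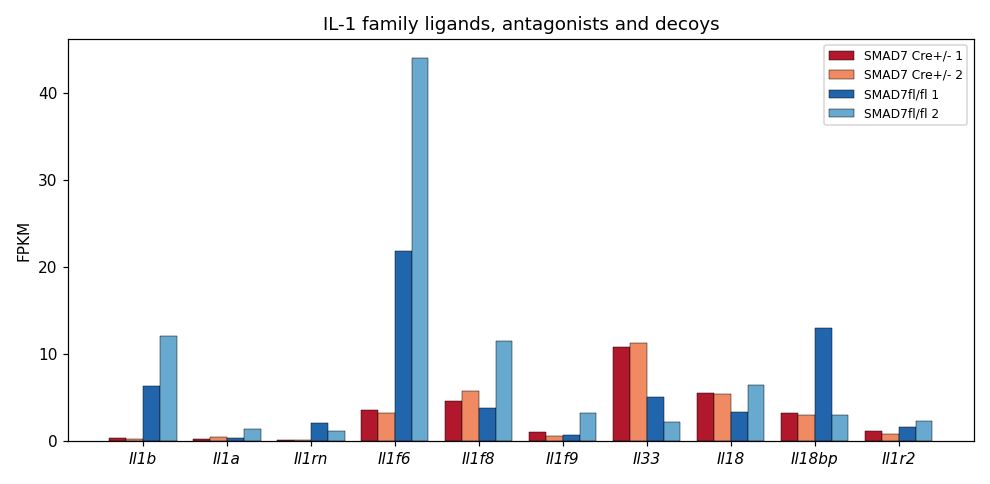
FPKM of IL-1 family ligands, antagonists and decoys in each library, 1 bar per library, from 0. Il1b, Il1rn and Il1f6 are low in both Cre-labelled libraries and Il33 is high in both, while Il1f8, Il1f9 and Il18bp are high in 1 fl/fl-labelled library only.

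Of the IL-1 family receptors and decoys, 6 lie side by side on chromosome 1, from the start of Il1r2 at 40074079 to the end of Il18rap at 40551705 on GRCm38. Il1r1, the signalling receptor of IL-1, stood at 9.84 and 12.4 FPKM in the Cre-labelled libraries, against 14.7 and 12.5 FPKM in the fl/fl-labelled ones. The groups did not overlap but nearly touched, with a log2 fold change of -0.30 ± 0.22 (SE, edgeR adjusted p = 0.584). Il1r2, a decoy that binds IL-1 without signalling, had 1.22 and 0.811 FPKM against 1.67 and 2.30 FPKM, and a log2 fold change of -0.97. Il1rl2, the IL-36 receptor, had 4.18 and 5.08 FPKM against 6.67 and 6.54 FPKM, without overlap (log2 fold change -0.51, edgeR adjusted p = 0.372). Il1rap, the accessory chain of the signalling receptors, which lies on chromosome 16, had 1.19 and 1.40 FPKM against 1.52 and 1.35 FPKM and overlapped (log2 fold change -0.15).

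The other 3 genes of the cluster serve IL-33 and IL-18. Il1rl1 encodes ST2, the IL-33 receptor of mast cells, type 2 lymphoid cells and regulatory T cells, and had 0.680 and 0.565 FPKM in the Cre-labelled libraries, against 1.57 and 0.303 FPKM in the fl/fl-labelled ones. The fl/fl-labelled libraries lay on either side, so the receptor had no common direction where its ligand did. Il18r1, the IL-18 binding chain, was slightly higher at 4.52 and 5.58 FPKM against 4.08 and 3.67 FPKM (log2 fold change 0.38 ± 0.25, SE). Its signalling partner Il18rap was lower, at 0.388 and 0.467 FPKM against 1.85 and 0.733 FPKM, without overlap, and the pooled ratio of Cre-labelled to fl/fl-labelled was 0.315 (0.252 to 0.392, counting error only).

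Chains of the receptors for IL-2, IL-15 and IL-21 were lower in the Cre-labelled libraries. Il2rb, the beta chain through which IL-2 and IL-15 signal in natural killer and T cells, stood at 3.96 and 3.78 FPKM in the Cre-labelled libraries, against 12.2 and 12.3 FPKM in the fl/fl-labelled ones. Each pair agreed closely and the pairs were far apart, which made this the receptor with the smallest p, at a log2 fold change of -1.66 ± 0.20 (SE, edgeR adjusted p = 0.0981). It kept between -1.61 and -1.72 with 1 library left out. Il2rg, the common gamma chain, stood at 1.48 and 1.56 FPKM, against 6.72 and 3.29 FPKM, without overlap (log2 fold change -1.71 ± 0.45, SE). The annotated gene Gm20489 covers 30.5% of the Il2rg exon sequence, so its level is uncertain.

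The same order held for the private chains of IL-15 and IL-21. Il15ra, which presents IL-15 to neighbouring cells, had 2.06 and 1.57 FPKM in the Cre-labelled libraries, against 4.57 and 2.97 FPKM in the fl/fl-labelled ones. Il21r, the IL-21 receptor of lymphocytes, had 1.26 and 1.17 FPKM against 3.93 and 2.08 FPKM. Neither overlapped between the groups, and their log2 fold changes were -1.04 ± 0.35 and -1.30 ± 0.43 (SE; edgeR adjusted p = 0.294 for both). Il15 itself, the growth factor of uterine natural killer cells, had 4.17 and 5.30 FPKM against 8.06 and 5.40 FPKM, where fl/fl-labelled replicate 2 lay almost level with the Cre-labelled pair (log2 fold change -0.50). Other chains of the family were not separated. Il2ra, the high-affinity IL-2 chain of activated and regulatory T cells, had 0.486 and 0.612 FPKM against 0.793 and 0.549 FPKM, and Il7r, the IL-7 receptor of naive lymphocytes and innate lymphoid cells, 0.562 and 1.02 FPKM against 1.01 and 0.743 FPKM. Il7 was equally flat, at 0.597 and 1.02 FPKM against 0.969 and 0.757 FPKM.

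Markers of T, natural killer and innate lymphoid cells were lower in the same libraries. Of 19 markers 14 were lower without overlap and 1, Gata3, was higher. Of the 16 markers tested, 12 were lower and 0 higher without overlap, where 24.1% and 23.8% of all genes tested were so. All 19 summed to 28.4 and 28.7 FPKM in the Cre-labelled against 86.5 and 80.9 FPKM in the fl/fl-labelled libraries. None was at 0 in all libraries. The 4 of smallest p were Gzmb, Nkg7, Prf1 and Cd8a, with log2 fold changes of -2.38, -2.17, -2.57 and -2.12. Their part in the lower Il2rb, Il2rg, Il15ra and Il21r was not tested.

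The receptor for IL-4 and IL-13 went the other way from the gamma chain it pairs with. Il4ra, the signalling chain for both cytokines, stood at 41.8 and 32.2 FPKM in the Cre-labelled libraries, against 14.95 and 25.1 FPKM in the fl/fl-labelled ones. All Cre-labelled values were higher, with a log2 fold change of 0.87 ± 0.36 (SE, edgeR adjusted p = 0.371), and 0.51 without fl/fl-labelled replicate 1. In lymphocytes it pairs with Il2rg and in other cells with Il13ra1, which stood at 16.6 and 20.9 FPKM against 21.6 and 23.9 FPKM (log2 fold change -0.28). The ratio of Il4ra to Il13ra1 was 2.51 and 1.54 in the Cre-labelled and 0.692 and 1.05 in the fl/fl-labelled libraries, and that of Il4ra to Il2rg was 28.2 and 20.6 against 2.23 and 7.61. The gene occupies 125552120 to 125579474 on chromosome 7 (GRCm38, plus strand), and another gene covers 9.51% of the exon sequence. Its promoter window is shown as that of a receptor gene that was higher, with the NF-kB motif in capitals on the opposite strand, beginning 21 bases after the start site.
Il4ra, chr7:125552021-125552320, plus strand: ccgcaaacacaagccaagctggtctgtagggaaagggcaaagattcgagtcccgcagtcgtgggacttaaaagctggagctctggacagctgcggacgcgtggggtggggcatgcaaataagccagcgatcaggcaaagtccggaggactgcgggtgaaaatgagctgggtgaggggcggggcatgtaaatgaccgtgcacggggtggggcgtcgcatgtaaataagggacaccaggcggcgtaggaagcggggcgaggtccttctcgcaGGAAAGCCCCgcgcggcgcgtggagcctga

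The cytokines for this receptor were scarce. Il4 had 2.63 and 2.85 FPKM in the Cre-labelled libraries, against 2.66 and 1.12 FPKM in the fl/fl-labelled ones, and overlapped (log2 fold change 0.54, but 0.079 without fl/fl-labelled replicate 2 and 1.24 without replicate 1). Il13 and Il5, made by type 2 lymphocytes, had 0 to 3 counts a library. Il13ra2, a decoy for IL-13, had 0.818 and 0.679 FPKM against 1.39 and 0.482 FPKM. Il5ra, the IL-5 receptor of eosinophils, had 1.58 and 1.06 FPKM against 1.83 and 0.538 FPKM (log2 fold change 0.17), and for both genes the fl/fl-labelled libraries lay on either side of the Cre-labelled pair. Il3ra, the IL-3 receptor of mast cells, basophils and dendritic cells, was lower without overlap, at 3.42 and 2.82 FPKM against 5.07 and 5.34 FPKM (log2 fold change -0.74 ± 0.29, SE, edgeR adjusted p = 0.363). Of 11 mast cell and eosinophil markers, 6 were higher and 2 lower without overlap. Of the 8 tested, 4 were higher and 2 lower (23.8% and 24.1% of all genes tested). The sum of the 11 was 29.4 and 32.0 FPKM against 34.5 and 22.3 FPKM. The 4 of smallest p were Cma1, Mcpt4, Ccr3 and Tpsb2, with log2 fold changes of 1.18, 1.17, -1.90 and 1.10. None of the 11 was at 0 in all libraries, and their part in these levels was not tested.

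Il6st, encoding gp130, was the most abundant of all members in each library. It stood at 76.4 and 82.9 FPKM in the Cre-labelled libraries, against 56.1 and 58.5 FPKM in the fl/fl-labelled ones, tight within each group and without overlap. The log2 fold change was 0.47 ± 0.29 (SE, edgeR adjusted p = 0.513), with a range of 0.40 to 0.54 over the alternatives tried. The private chains did not share this. Il6ra, the IL-6 chain, had 3.35 and 3.51 FPKM against 3.59 and 2.44 FPKM, and Il11ra1, the IL-11 chain needed for decidualisation in mice, 16.2 and 13.4 FPKM against 19.3 and 16.0 FPKM. Both overlapped, with log2 fold changes of 0.19 and -0.25. Il11ra1 has a near copy in Il11ra2, which had 1 count in all, so reads that fit both may be missing from each.

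The gp130 ligands among the members were close to the limit of detection. Il6 had 0 and 2 counts in the Cre-labelled libraries, against 4 and 7 in the fl/fl-labelled ones, and Il11 8 and 9 against 6 and 2. Il27, a subunit of IL-27, had 0 and 6 counts against 13 and 0, while its receptor Il27ra had 1.24 and 1.26 FPKM against 1.60 and 1.51 FPKM (log2 fold change -0.31). Il31ra, the IL-31 receptor and a relative of gp130, was higher without overlap at 0.711 and 0.647 FPKM in the Cre-labelled libraries, against 0.238 and 0.271 FPKM in the fl/fl-labelled ones, from 144 and 59 counts. It was too low to be tested, and the pooled ratio was 2.70 (1.98 to 3.72, counting error only).

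Among the receptors of the IL-10 family, Il10ra was lower and Il20rb higher. Il10ra, the IL-10 binding chain of leukocytes, stood at 3.24 and 3.43 FPKM in the Cre-labelled libraries, against 13.2 and 5.59 FPKM in the fl/fl-labelled ones. The groups did not overlap, but fl/fl-labelled replicate 1 was far above replicate 2, and the log2 fold change of -1.48 ± 0.43 (SE, edgeR adjusted p = 0.254) was -0.80 without it. Il10rb, the chain that several cytokines of this family share outside leukocytes too, differed little at 5.85 and 6.95 FPKM against 6.93 and 8.03 FPKM (log2 fold change -0.23), and another gene covers 14.9% of the exon sequence. Il10 itself had 1 and 5 counts against 14 and 6.

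The chains for IL-20, IL-22 and IL-24, which act on epithelium, each followed a course of their own. Il20rb stood at 10.2 and 7.84 FPKM in the Cre-labelled libraries, against 1.94 and 6.44 FPKM in the fl/fl-labelled ones, so that only fl/fl-labelled replicate 1 was well below the rest. Its log2 fold change was 1.08 ± 0.60 (SE, edgeR adjusted p = 0.484), 0.43 without that library and 2.26 without replicate 2. Its partner Il20ra had 2 and 6 counts against 1 and 117, nearly all of them in fl/fl-labelled replicate 2. Il22ra1, which pairs with Il10rb to bind IL-22, had 0.412 and 1.16 FPKM against 2.19 and 1.69 FPKM, without overlap (log2 fold change -1.30 ± 0.60, SE, but -0.75 without Cre-labelled replicate 1 and -2.22 without replicate 2). Il24 had 16 counts in fl/fl-labelled replicate 1 and 0 in the other 3 libraries, and Il19 and Il20 1 count each in the same library.

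Of the IL-12 and IL-23 genes, Il12b and Il12rb1 were high in fl/fl-labelled replicate 1. Il12b, the subunit shared by IL-12 and IL-23 that activated dendritic cells and macrophages make, had 7 and 0 counts in the Cre-labelled libraries, against 385 and 14 in the fl/fl-labelled ones. Its level was 0.179 and 0 FPKM against 8.53 and 0.391 FPKM, so the groups did not overlap but the distance was set by 1 library. The fitted log2 fold change was -5.49 ± 1.83 (SE, edgeR adjusted p = 0.295), and -2.07 without fl/fl-labelled replicate 1. Without Cre-labelled replicate 1 that group had no count, and no fold change is given. Il12rb1, which binds that subunit, had 0.344 and 0.154 FPKM against 1.76 and 0.455 FPKM, and Il12rb2, which completes the IL-12 receptor, 6 and 4 counts against 14 and 17. Serbp1 covers 40.0% of the Il12rb2 exon sequence. Il23r, which completes the IL-23 receptor, was the reverse with 10 and 14 counts against 1 and 7. Il12a and Il23a, the private subunits of the 2 cytokines, had at most 5 and 13 counts a library.

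IL-17 receptor chains were abundant, and the shared chain was the one that was higher. Il17ra, common to the receptors of the family, stood at 11.4 and 9.39 FPKM in the Cre-labelled libraries, against 3.82 and 5.01 FPKM in the fl/fl-labelled ones. The groups were well separated, with a log2 fold change of 1.23 ± 0.26 (SE, edgeR adjusted p = 0.167) and 1.01 to 1.49 with 1 library left out. Il17rc, its partner for IL-17A and IL-17F, had 14.2 and 11.6 FPKM against 19.4 and 14.6 FPKM, just without overlap (log2 fold change -0.39 ± 0.23, SE). The ratio of Il17ra to Il17rc was 0.804 and 0.809 in the Cre-labelled libraries and 0.197 and 0.344 in the fl/fl-labelled, so it was alike within the first pair and lower in both of the second. Il17rb, the partner for IL-25, had 5.36 and 4.99 FPKM against 12.3 and 6.61 FPKM (log2 fold change -0.86 ± 0.33, SE, edgeR adjusted p = 0.347), and -0.40 without fl/fl-labelled replicate 1. Il17re, the partner for IL-17C on epithelium, had 6.32 and 5.63 FPKM against 5.55 and 11.1 FPKM. Il17rd, which also curbs fibroblast growth factor signalling, had 4.20 and 5.45 FPKM against 5.15 and 5.89 FPKM, and both overlapped, with log2 fold changes of -0.50 and -0.20.

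Of the IL-17 ligands only Il17d was plentiful. It stood at 16.2 and 14.0 FPKM in the Cre-labelled libraries, against 16.5 and 25.97 FPKM in the fl/fl-labelled ones, where replicate 1 was level with the Cre-labelled pair (log2 fold change -0.50). Il17c, an epithelial member induced by bacteria, had 3 and 4 counts against 1 and 51, so it was seen almost wholly in fl/fl-labelled replicate 2, and its log2 fold change of -2.89 turned to 2.00 without that library. Il17a and Il17f, the products of T helper 17 and gamma delta T cells, had 0 counts in all 4 libraries. At a floor of 3 counts this allows up to 0.127 to 0.171 CPM (counts scaled to library size) a library. Il17b and Il25 had 0 to 6 counts a library.

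The ligands outside these families, Il16 and Il34, were steady. Il16, which attracts CD4 T cells, had 2.81 and 2.34 FPKM in the Cre-labelled libraries, against 1.93 and 2.998 FPKM in the fl/fl-labelled ones, and other genes cover 17.4% of its exon sequence. Il34, which shares the CSF-1 receptor and maintains tissue macrophages, had 1.34 and 1.32 FPKM against 1.38 and 1.52 FPKM. Their log2 fold changes were 0.054 ± 0.34 and -0.13 ± 0.42 (SE). Il2, Il9, Il9r, Il21, Il22ra2 and the 4 genes of other kinds, Il4i1, Il1bos, Il1rapl1 and Il1rapl2, had 0 to 14 counts a library. Of these, Il21 had 14 counts in fl/fl-labelled replicate 1 and 0 elsewhere, as Il24 did with its 16.

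How far a direction depended on the fl/fl-labelled library was read by setting the Cre-labelled pair against each one alone. Within the fl/fl-labelled pair 13 of the 40 tested members differed at least 2-fold (32.5%), against 2 of 40 within the Cre-labelled pair (5.0%), where the shares over all tested genes were 20.0% and 2.81%. Higher in fl/fl-labelled replicate 1 were Il10ra, Il12b, Il18bp, Il2rg, Il33, Il4 and Il5ra. Higher in replicate 2 were Il17c, Il17re, Il1f6, Il1f8, Il1f9 and Il20rb. The sign of the log2 fold change turned in 3 members without replicate 1, Il16, Il18 and Il18bp, and in 6 without replicate 2, Il17c, Il17re, Il1f8, Il1f9, Il5ra and Il6ra. The other 31 tested members kept their sign in both. The 11 named above at an unadjusted p under 0.05 are among them, but their groups did not overlap, so their sign was bound to hold.

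**Figure D4:**
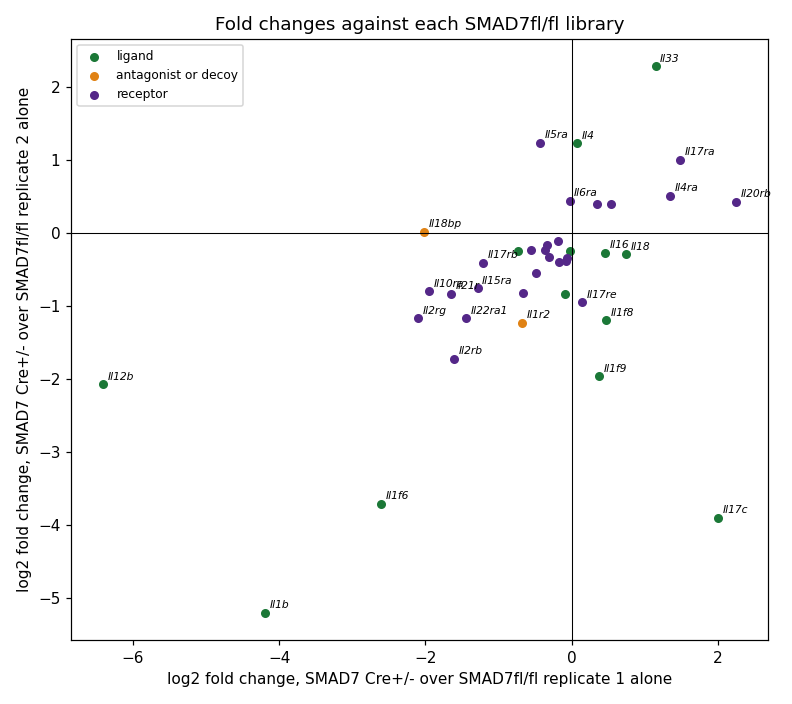
Log2 fold change of each tested member for the Cre-labelled pair over fl/fl-labelled replicate 1 alone (horizontal) and over fl/fl-labelled replicate 2 alone (vertical); the Cre-labelled libraries are shared by both axes. Il1b and Il1f6 lie far down and left and Il33, Il17ra and Il4ra up and right, while Il17c, Il1f9 and Il1f8 lie to the right of and below 0.

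Genes that act with the interleukins under other names, or downstream of their receptors, were read in 4 lists, none of which held a gene at an edgeR adjusted p under 0.05. Of 27 tested transducers of IL-1 and Toll-like receptor signals, at an unadjusted p under 0.05 there were 3 lower and 0 higher (6.59% and 7.3% of all genes), and 11 were lower and 1 higher without overlap (24.1% and 23.8%), with a median log2 fold change of -0.11. The 4 of smallest p were Relb, an NF-kB subunit, at -0.84, Myd88, the adaptor of IL-1 and IL-18 receptors, at -0.52, Tnfaip3, an inhibitor of NF-kB, at -1.48, and Tab1, a partner of the kinase TAK1, at -0.51. Of 6 tested genes for the processing of IL-1, 5 had a log2 fold change below 0, as did 7165 of all 13513 genes tested. Without overlap 2 were lower and 0 higher (24.1% and 23.8% of all genes). At an unadjusted p under 0.05 there were 1 lower and 0 higher (6.59% and 7.3%), the lower being Casp4, an inflammatory caspase. It had 5.98 and 7.40 FPKM in the Cre-labelled libraries, against 16.2 and 29.9 FPKM in the fl/fl-labelled ones (log2 fold change -1.80 ± 0.38, SE, edgeR adjusted p = 0.166). Casp1, which cleaves IL-1 beta, had -0.73, Gsdmd, the pore through which it leaves the cell, -0.52, and Nek7, an inflammasome cofactor, -0.060.

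Of 22 tested JAK and STAT genes, 7 were higher and 4 lower without overlap (23.8% and 24.1% of all genes), with a median log2 fold change of 0.014. At an unadjusted edgeR p under 0.05, 3 were higher and 3 lower (7.3% and 6.59%). Socs2, Socs5 and Stat5a, feedback inhibitors and a transducer of cytokine receptors, were higher, with log2 fold changes of 0.94, 0.85 and 0.97. Among the lower, Ptpn6, a phosphatase that dampens cytokine receptors in leukocytes, had 6.96 and 6.94 FPKM in the Cre-labelled libraries, against 13.2 and 9.08 FPKM in the fl/fl-labelled ones (log2 fold change -0.67), and Gm20531 covers 6.96% of its exon sequence. Of 11 tested partners with other names, 2 were higher and 3 lower without overlap (23.8% and 24.1% of all genes), with a median log2 fold change of -0.16. At an unadjusted edgeR p under 0.05, 2 were higher and 1 lower (7.3% and 6.59%). Cntfr, the CNTF receptor, was higher at 1.56 and 1.98 FPKM in the Cre-labelled libraries, against 0.642 and 0.810 FPKM in the fl/fl-labelled ones (log2 fold change 1.28). Csf2rb, the beta chain through which IL-3 and IL-5 signal, was lower at 2.07 and 2.06 FPKM against 8.57 and 2.97 FPKM, and its mouse paralog Csf2rb2, which IL-3 uses, had a log2 fold change of -1.45. The 2 are close copies, so reads may be shared between them.

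Markers of other leukocytes were read beside the IL-1 genes. Of 17 neutrophil markers, 10 were lower without overlap and 1, Ltf, was higher. Of the 9 tested, 7 were lower and 1 higher (24.1% and 23.8% of all genes tested). Camp and Trem1 were at 0 in both Cre-labelled libraries. The sum of the 17 was 1526 and 1006 FPKM in the Cre-labelled against 477 and 1360 FPKM in the fl/fl-labelled libraries. Most of it came from Ltf and Lcn2, which uterine epithelium also makes. The 4 of smallest p were Cxcr2, S100a8, S100a9 and Csf3r, with log2 fold changes of -6.21, -7.32, -6.26 and -2.10. Of 15 macrophage and monocyte markers, 8 were lower and 2 higher without overlap (24.1% and 23.8% of all genes tested). Their sum was 511 and 523 FPKM against 1021 and 790 FPKM, and none was at 0. The 4 of smallest p were Ly6c2, Ccr2, C1qb and Cd163, at -1.93, -0.79, -1.06 and 1.25. Dendritic cell markers had sums of 10.7 and 12.3 FPKM against 12.6 and 11.2 FPKM, with 2 of 6 lower and 0 higher without overlap. B and plasma cell markers had sums of 185 and 200.1 FPKM against 357 and 431 FPKM, with 2 of 6 lower and 1 higher. Each list held 3 tested markers. Without overlap 1 tested dendritic cell marker and 2 tested B and plasma cell markers were lower, and 0 were higher (24.1% and 23.8% of all genes tested). Lists of 3 are too small to set against these shares. Of the 3 tested dendritic cell markers, Itgax had a log2 fold change of -0.68 and Cd209a and Zbtb46 0.52 and 0.27, and the 3 tested of the other list, Jchain, Cd79a and Cd79b, had -1.06, -0.73 and -0.35. The part of these markers in the lower Il1b, Il1rn and Il10ra was not tested.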

How the data were processed

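Polyadenylated RNA of 2 libraries labelled SMAD7 Cre+/- and 2 labelled SMAD7fl/fl was analysed. The deposited files give, per the file headers, an integer read count and an FPKM value for each gene. HISAT2, HTSeq 0.13.5 and the build GRCm38 are listed in the submitters' processing notes, without roles, strand or overlap settings. The deposited FPKM equals the count over gene length and the library's total count: lengths from 2 or more libraries matched within 1e-06 for 23463 of 23463 genes. The design was fixed for counts: edgeR 4.0.16 quasi-likelihood tests (R 4.3.3), TMM scaling, group as the only term, a mean over libraries of 1 FPKM or more, two-sided, Benjamini-Hochberg over 13513 genes. The SE is the log2 fold change over the square root of the test statistic. An exact two-sided permutation test of 2 against 2 libraries cannot go below p = 0.333. Pooled ratios use TMM-scaled libraries and carry exact 95% binomial intervals. The fit was tested on simulated counts. Every member with a mean FPKM of at least 1 was named, the 15 of smallest p and a list of known members with values, and the 4 tested genes of smallest p in the pathway, leukocyte, smooth muscle and ovary and oviduct lists. Some genes that this rule names are not reported here. Other low members, and the TATA box motif, were added after values or sequences were seen. The members and lists were chosen with earlier results of these data known. Alternatives were scaling, filter, DESeq2 1.42.0, limma 3.58.1 on log2(FPKM + 1) and log2(FPKM + 0.1), a replicate block and each library left out. Coordinates and exon overlaps are from GENCODE M21, which held 28447 of 28545 identifiers, and promoter windows from RefSeq on GRCm38.p6, matched for 60 of 79 members by gene identifier and taken nearest the annotated 5′ end.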

Additional observations from a re-analysis of the deposited data

How the results depend on the processing

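Median-of-ratios and total count scaling moved no count of calls beyond 1.5 times. All genes at an adjusted p under 0.05 numbered 0 in the reported fit, 1928 with no filter, 1 with a filter of 5 FPKM, 843 with DESeq2, 4 with limma on log2(FPKM + 0.1) and 0 to 4249 with 1 library left out. Interleukin genes called numbered 0, 15 with no filter (76 tested), 8 with DESeq2 and 0 to 14 with 1 library left out. Those at an unadjusted p under 0.05 numbered 11, 26 with no filter, 17 with edgeR's count filter (51 tested, now with Il1rn at an adjusted p of 0.106), 6 with a filter of 5 FPKM (22 tested) and 6 to 21 with 1 library left out. The median log2 fold change of ligands ran from -0.83 to 0.079 with 1 library left out, being 0.079 without SMAD7fl/fl replicate 2, and that of receptors from -0.40 to -0.31. The sign of 31 of 40 members held in all 13 alternatives in which each was tested. With 1 library left out the others ran from -0.27 to 0.46 (Il16, and -0.0033 with no filter), -3.90 to 2.00 (Il17c), -0.95 to 0.15 (Il17re), -0.29 to 0.74 (Il18), -2.01 to 0.018 (Il18bp), -1.19 to 0.48 (Il1f8), -1.96 to 0.37 (Il1f9), -0.43 to 1.24 (Il5ra) and -0.027 to 0.44 (Il6ra). The cause was not tested. Replicate numbers did not pair the libraries (correlation of deviations -0.076), and with the replicate block 10 members were at an unadjusted p under 0.05, 2 higher and 8 lower, and 0 passed. Depth left 14 of the 79 members with fewer than 10 counts over all libraries, for which counts alone are given.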
